A study of Mus musculus with 5 samples.

Results

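Replication initiation zones were examined in the cores of 3 large clusters of olfactory receptor genes in CGR8, an embryonic stem cell line of the mouse that was grown with serum and leukaemia inhibitory factor and without feeder cells. The cores were set by position in build mm9: 4.3 Mb of chromosome 2 starting at base 85500001, 5 Mb of chromosome 7 starting at base 110000001, an interval that also holds the beta-globin genes, and 1.8 Mb of chromosome 9 starting at base 38000001. A zone belonged to a core when any of its bases lay inside it, which gave 41 of the 35512 zones of the list (0.115%), 5 on chromosome 2, 33 on chromosome 7 and 3 on chromosome 9. The cores together span 11.1 Mb, or 0.461% of the autosomal length, measured per chromosome from its first to its last zone. The intervals were set by position and not by a value of the zones in them.

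The zones come from short nascent DNA strands of 0.5 to 2 kb, which were freed of other DNA by lambda exonuclease and sequenced from 3 independent cultures of the same line. In the controls, sonicated genomic DNA was treated with the exonuclease (1 sample), or nascent strands were treated with 100 ng/ml of RNase A before the exonuclease to remove their RNA primers (1 sample). The deposited list combines the 3 cultures, so it gives no value per culture, no read number and no depth, and the controls were not analysed here. All comparisons below are therefore descriptions of 1 list with no test, and the intervals on zone numbers and ratios are exact 95% intervals for counting error only.

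Olfactory receptor genes encode odorant receptors, members of the G-protein-coupled receptor superfamily, and form the largest gene family of the mouse. They lie in tandem arrays, and each olfactory neuron expresses a single receptor allele while the other receptor genes are kept silent. Replication starts at many sites along each chromosome, and in mouse cells these sites are known to lie often near promoters rich in G, C and CpG dinucleotides. The beta-globin genes encode the beta chains of haemoglobin and are used by erythroid cells.

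The gene content of the clusters was read from the order of protein-coding genes in RefSeq, whose table is of another build (GRCm38.p6), so genes were not placed against zones. On chromosome 2 the longest run of Olfr genes held 222 of them and 3 other genes. Its neighbours were Tnks1bp1, Aplnr, the apelin receptor, and Lrrc55 on the near side and Ptprj, a receptor tyrosine phosphatase, Gm46752 and Nup160, a nuclear pore protein, on the far side. On chromosome 9 the run held 95 Olfr genes and 3 others, between Panx3, a pannexin, with Tbrg1 and Siae next to it, and Zfp202, followed by Scn3b, a sodium channel subunit, and Gramd1b. The chromosome 7 run was more mixed. It held 193 Olfr genes and 55 others, between Rrm1, the large subunit of ribonucleotide reductase, with Stim1 and Rhog next to it, and Nlrp10, followed by Eif3f, a translation initiation factor, and Tub. Its other genes included 5 beta-globin genes, which follow the first 73 Olfr genes, and 13 Trim genes. After 126 Olfr genes the chromosome 7 run was broken by its largest block of other genes, 21 in a row from Fam160a2 to Gm1966, among them Smpd1, the acid sphingomyelinase, Ilk, the integrin-linked kinase, Taf10, a subunit of the general transcription factor TFIID, and Tpp1, a lysosomal peptidase. Another 67 Olfr genes follow this block.

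Sequence at the annotated gene starts, called promoters here, differed in base composition between the receptor genes and that block. Windows from 250 bases before to 50 bases after the annotated start were available for 435 of the 510 Olfr genes of the 3 runs. Their median GC content was 34%, against 52.7% over all 27025 promoters of the RefSeq table, with run medians of 32% on chromosome 2, 36.7% on chromosome 7 and 35.3% on chromosome 9. No CpG dinucleotide was present in 35.4% of these Olfr windows, against 5.78% of all promoters. The G-quadruplex motif, 4 runs of at least 3 G separated by 1 to 7 bases on either strand, was found in 2 of the 435 (0.46%), against 18.1% of all promoters. The 14 windows available for the 21-gene block had a median GC content of 58.8% and a median of 15.5 CpG dinucleotides, against 1 in the Olfr windows and 7 over all promoters. The 4 beta-globin windows available had a median GC content of 45.8%. The G-quadruplex motif was found in 2 of the 14 block windows (14.3%), a smaller share than over all promoters, and in 1 of the 4 beta-globin windows. These values describe the clusters' genes and say nothing on whether a zone lies at a given promoter. Whether transcription begins at the annotated starts was not tested. Where an Olfr start is annotated further inside the gene, its window is not a promoter, and the comparison with all promoters is then unlike.

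To show this difference in letters, the 150 bases before the annotated start are printed 5′ to 3′ on the gene's own strand, with CpG dinucleotides in capitals. They are the Olfr promoter of median GC content in each run (Olfr1096 on chromosome 2, minus strand; Olfr473 on chromosome 7, plus strand; Olfr917 on chromosome 9, minus strand), the adult beta-globin gene Hbb-bt (chromosome 7, minus strand), and, from the 21-gene block, Cckbr (chromosome 7, plus strand), a cholecystokinin receptor gene whose GC content was closest to the block's median. All are from RefSeq, GRCm38.p6.
Olfr1096: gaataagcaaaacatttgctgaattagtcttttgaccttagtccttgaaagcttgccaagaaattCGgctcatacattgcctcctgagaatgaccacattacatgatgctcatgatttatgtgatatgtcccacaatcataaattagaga
Olfr473: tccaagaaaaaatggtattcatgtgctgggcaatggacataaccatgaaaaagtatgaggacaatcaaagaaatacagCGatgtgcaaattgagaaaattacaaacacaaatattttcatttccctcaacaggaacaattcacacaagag
Olfr917: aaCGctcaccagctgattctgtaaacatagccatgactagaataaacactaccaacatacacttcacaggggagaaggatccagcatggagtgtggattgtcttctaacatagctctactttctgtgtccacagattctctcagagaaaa
Hbb-bt: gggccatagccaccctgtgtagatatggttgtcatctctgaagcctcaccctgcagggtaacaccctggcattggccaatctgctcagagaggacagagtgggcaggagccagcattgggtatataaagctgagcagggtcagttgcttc
Cckbr: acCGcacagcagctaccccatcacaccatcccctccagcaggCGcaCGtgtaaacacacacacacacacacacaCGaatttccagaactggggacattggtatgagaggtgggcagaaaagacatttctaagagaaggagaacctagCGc
Each of the 3 Olfr stretches shows 1 CpG dinucleotide, that of Hbb-bt none and that of Cckbr 5.

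The question the intervals were chosen for is whether initiation zones are rarer in receptor gene clusters than around them. Zones were sparse in the chromosome 2 and chromosome 9 cores. The chromosome 2 core held 5 zones in 4.3 Mb, or 1.16 per Mb (interval 0.378 to 2.71), and the chromosome 9 core held 3 zones in 1.8 Mb, or 1.67 per Mb (0.344 to 4.87). The chromosome 7 core held 33 zones in 5 Mb, or 6.6 per Mb (4.54 to 9.27). Over all autosomes the list had 14.6 zones per Mb.

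The 5 Mb on each side carried more zones in every case. Around the chromosome 2 core there were 52 zones on the left, toward lower coordinates, and 128 on the right, together 18 per Mb, so that the core carried 0.0646 of the density of its flanks (0.0207 to 0.154). Around the chromosome 9 core there were 58 zones on the left and 124 on the right, together 18.2 per Mb, and the ratio was 0.0916 (0.0187 to 0.272). Around the chromosome 7 core there were 130 on the left and 84 on the right, together 21.4 per Mb, and the ratio was 0.308 (0.207 to 0.446). All 3 intervals on the ratio lie below 1. On chromosomes 2 and 9 the flanks are themselves unequal. Against the left flank alone, with 10.4 and 11.6 zones per Mb, the ratios rose to 0.112 and 0.144.

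Covered length differed more than zone number. Zones took up 4.8 kb of the chromosome 2 core (0.112%), 3.4 kb of the chromosome 9 core (0.189%) and 102.6 kb of the chromosome 7 core (2.05%). The flanks were covered to 8.38% on chromosome 2, 7.08% on chromosome 9 and 10.6% on chromosome 7. Per Mb, zone coverage was thus 75.1 times lower in the core than in the flanks on chromosome 2, 37.5 times lower on chromosome 9 and 5.16 times lower on chromosome 7.

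**Figure D1:**
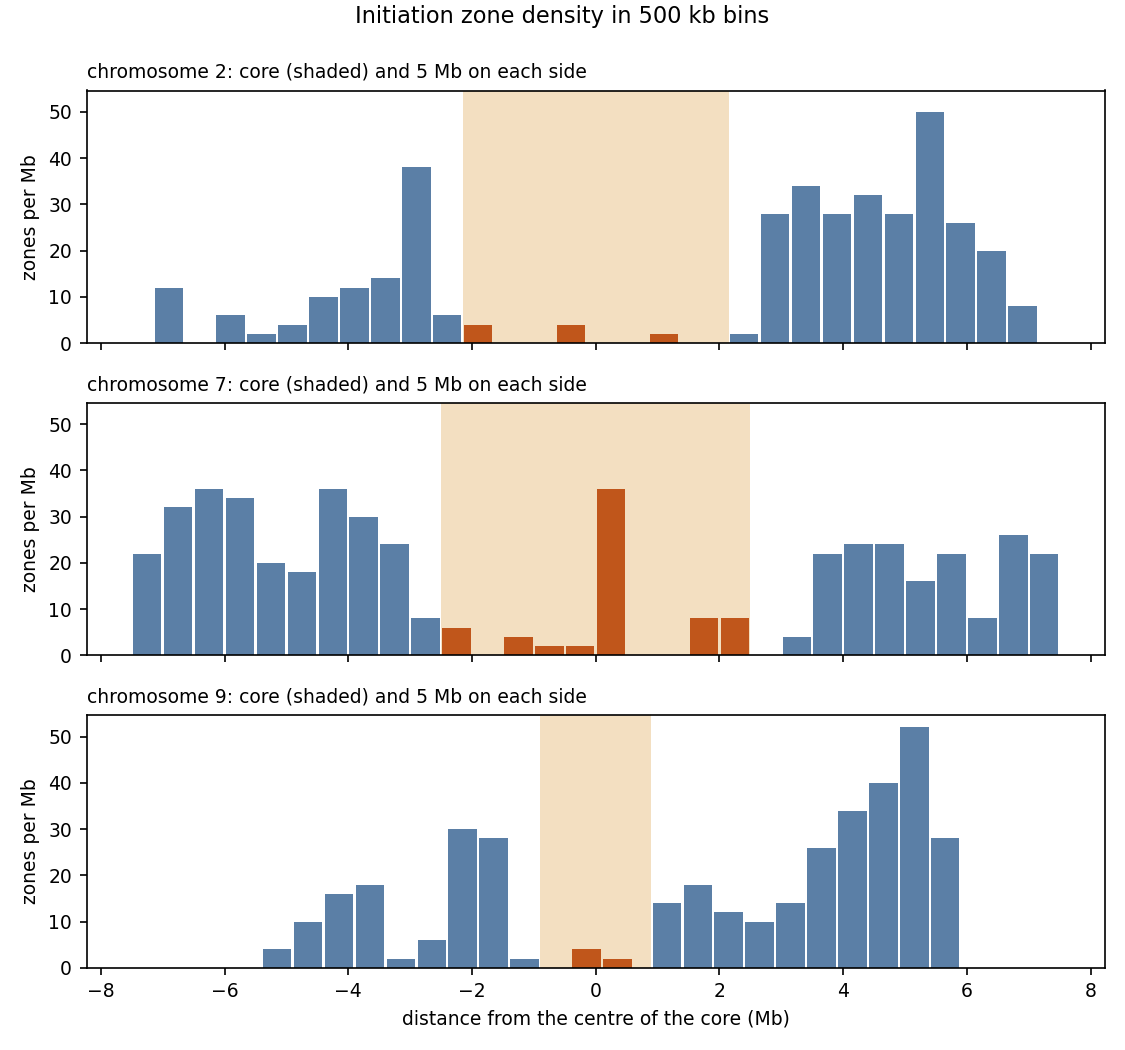
Initiation zones per Mb (vertical axis) in bins of 500 kb against the distance from the centre of each core in Mb (horizontal axis), for the 3 cores (shaded, orange bars) and 5 Mb on each side (blue bars). The last bin of the chromosome 2 and chromosome 9 cores is 300 kb. Bins in the cores are empty or low, except for the bin of 18 zones, or 36 per Mb, in the chromosome 7 core.

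In bins of 500 kb, as in the plot of zone density by distance from the core, 11 of the 23 core bins were empty and 3 of the 60 flank bins. Of the 9 bins of the chromosome 2 core, 6 were empty and the others held 1 or 2 zones, while its flank bins had a median of 6.5. Of the 4 bins of the chromosome 9 core, 2 were empty and the others held 1 and 2 zones, against a flank median of 7.5. On chromosome 7 the flank median was 11, with 3 of 10 core bins empty. A single chromosome 7 bin stood apart with 18 zones, as many as the fullest bin of its flanks.

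The members of the chromosome 2 core were all narrow. The first lay from 85718201 to 85719600 (1400 bp) and the second, 57.6 kb away, from 85777201 to 85778400 (1200 bp). The third, from 87090001 to 87090600, was 600 bp wide. The fourth, 226.8 kb beyond it, lay from 87317401 to 87318600 (1200 bp), and the fifth, from 88803001 to 88803400, was 400 bp wide. None reached 2 kb, whereas 70.6% of the zones in the flanks did. The fifth zone had no other zone within 500 kb.

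The 3 zones of the chromosome 9 core lay near its middle. They ran from 38772801 to 38773600 (800 bp), from 38792601 to 38793200 (600 bp) and from 39172601 to 39174600 (2000 bp). The first pair was 19 kb apart and the last zone 379.4 kb further on. No zone lay in the first 772.8 kb or the last 625.4 kb of this core.

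The chromosome 7 core was made of a compact dense block with sparse arms. The bin from 112500001 to 113000000 held 18 of its 33 zones (54.5%) and 73.3% of its covered length, in a block of 412.4 kb from 112547801 to 112960200. The 2.5 Mb before this bin held 7 zones (2.8 per Mb) and the 2 Mb after it held 8 (4 per Mb). Without the bin, which was singled out after its value was seen, the core carried 3.33 zones per Mb (1.87 to 5.5), 0.156 of the density of its flanks (0.0857 to 0.263) in place of 0.308, and its covered share was 0.609% in place of 2.05%. The flanks kept their fullest bins, so this removal could only lower the ratio, and the error intervals do not account for the choice of the bin. Removing the densest bin of the other cores left chromosome 2 with 0.789 zones per Mb and chromosome 9 with 0.769, each resting on 3 zones or fewer.

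**Figure D2:**
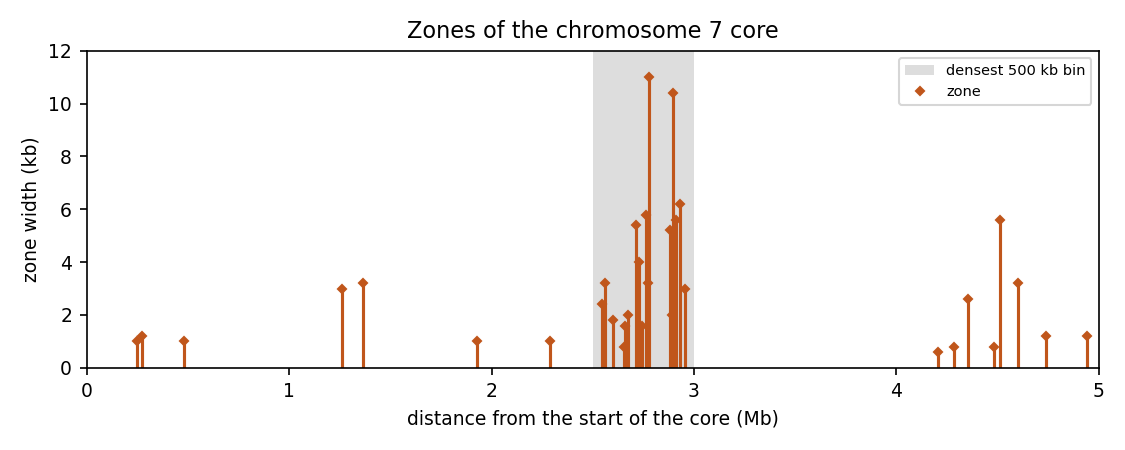
Width in kb (vertical axis) of each of the 33 zones of the chromosome 7 core against its distance from the start of the core in Mb (horizontal axis), with the densest 500 kb bin in grey. The widest zones, of 11 and 10.4 kb, lie in that bin, and a stretch of 1.24 Mb without a zone follows it.

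Inside the block the zones were wide and close together. The widest zones of the core lay there, from 112778801 to 112789800 (11 kb), from 112897401 to 112907800 (10.4 kb) and from 112931401 to 112937600 (6.2 kb). Of the 18 zones of the block, 7 reached 5 kb, 11 had another zone within 10 kb, and the median width was 3200 bp. None of the 15 other zones of the core had a neighbour within 10 kb. Their median width was 1200 bp, from 600 to 5600 bp, and 1 of them reached 5 kb. The first member of the core, from 110249001 to 110250000, was 1000 bp wide, and the last, from 114941601 to 114942800, was 1200 bp wide. Whether the block of zones and the block of 21 genes that breaks the receptor run occupy the same place was not tested, since no annotation of mm9 was used. For the same reason no zone is assigned to the beta-globin genes.

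Widths were then compared between cores and flanks. The median zone was 1200 bp wide on chromosome 2, 800 bp on chromosome 9 and 2400 bp on chromosome 7. In the flanks the medians were 3000, 2900 and 3200 bp, with quartiles from 1600 to 6700 bp. Isolated zones are narrow elsewhere too. The 16 members with 5 or fewer other zones inside 500 kb were 1100 bp wide at the median (400 to 3200 bp), and the 2276 other autosomal zones with as few neighbours were 1200 bp wide at the median (quartiles 800 and 1800 bp). The 18 zones of the chromosome 7 block, each with 15 or more neighbours, had a median of 3200 bp, as did the 25547 other autosomal zones with as many (quartiles 1800 and 5800 bp). In both groups the members' median width thus fell inside the quartiles of other zones. Members with more than 5 and fewer than 15 neighbours were in neither group. By core, the members with 5 or fewer neighbours had medians of 1200 bp on chromosome 2 and 1100 bp on chromosome 7. On chromosome 9 the median was 800 bp, equal to the lower quartile of other zones.

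**Figure D3:**
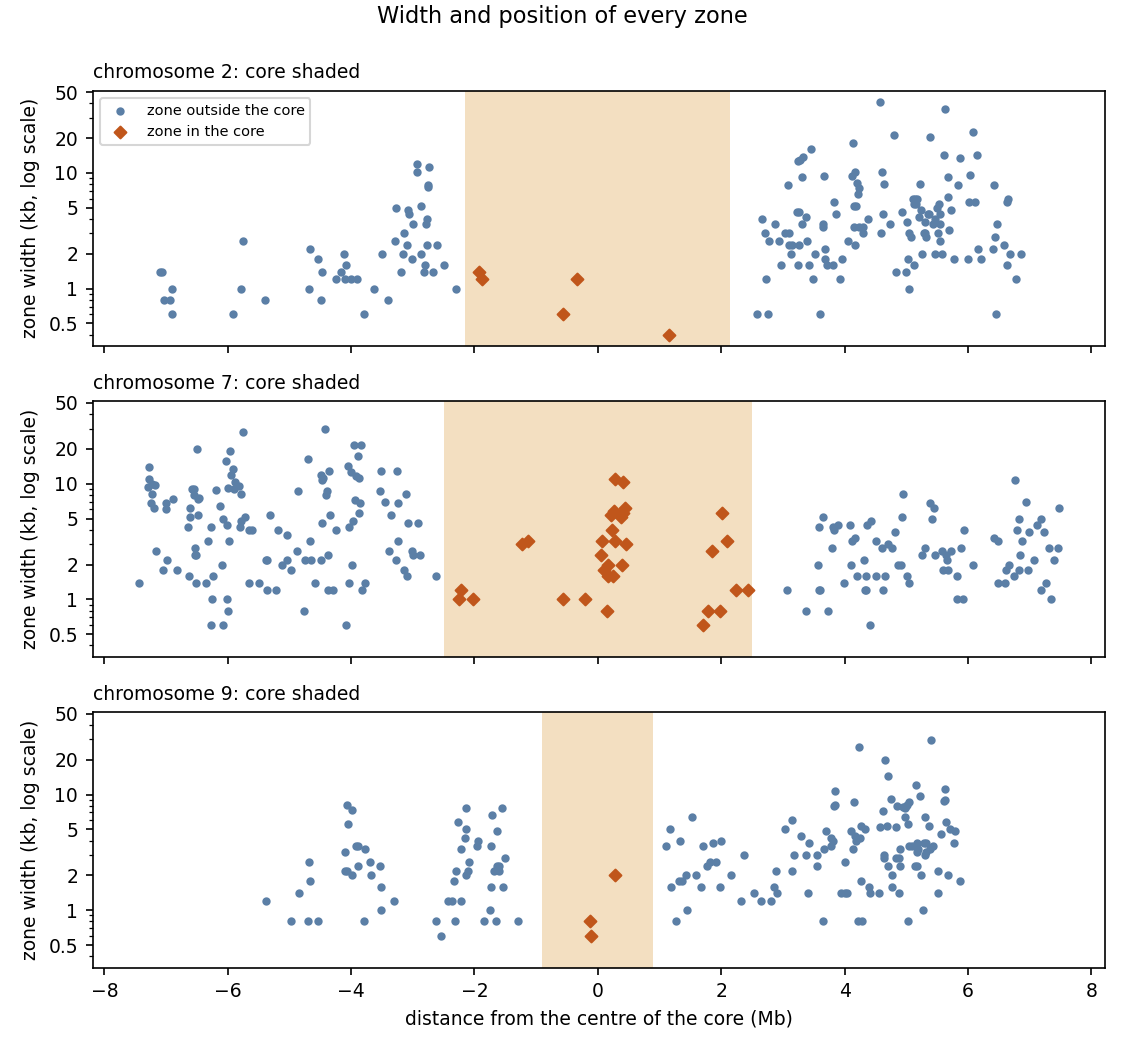
Width in kb on a log scale (vertical axis) and distance from the centre of the core in Mb (horizontal axis) of every zone in the 3 cores (orange diamonds, shaded) and in the 5 Mb on each side (blue points). The zones of the chromosome 2 and chromosome 9 cores are at most 2 kb wide, and those of the chromosome 7 core reach 11 kb in 1 cluster near its centre.

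At a limit of 500 kb, long stretches without a zone made up most of each core. Stretches of over 500 kb took up 88.2% of the chromosome 2 core (3 stretches), 77.7% of the chromosome 9 core (2 stretches) and 52.8% of the chromosome 7 core (4 stretches). In the flanks they took up 21.3%, 17.8% and 5.69%. The shares of the cores depended on the limit. At 1 Mb they were 88.2% on chromosome 2, 42.9% on chromosome 9 and 24.9% on chromosome 7. At 250 kb they were 93.3%, 98.8% and 70.1%, in the same order. The longest on chromosome 2 ran from 87318601 to 88803000 (1.48 Mb), and 45 of the 35119 stretches between autosomal zones were at least as long. The next ran from 85778401 to 87090000 (1.31 Mb). The one that followed, from 88803401 to 90235000, was 1.43 Mb long and reached 435 kb past the end of the core.

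On chromosome 9 both long stretches crossed an edge of the core. The first ran from 37602601 to 38772800 (1.17 Mb, 0.773 Mb of it inside) and the second from 39174601 to 39997600 (0.823 Mb, 0.625 Mb inside). A shorter one of 379.4 kb, from 38793201 to 39172600, separated the inner zones. On chromosome 7 the longest, from 112960201 to 114205000 (1.24 Mb), began where the dense block ended. The others lay from 110483601 to 111261800 (0.778 Mb) and from 111368001 to 111929600 (0.562 Mb). The fourth was 625800 bp long and crossed the far edge, with 57.2 kb of it inside the core. The nearest zone past the end of the core lay 568.6 kb away, from 115568601 to 115569800.

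Zone numbers just outside the cores were counted next. The 1 Mb just outside the chromosome 2 core held 23 zones on the left and 15 on the right, and that of chromosome 9 held 15 and 16. The chromosome 7 core had 16 zones in the 1 Mb on its left and 2 in the 1 Mb on its right. The nearest outside zones on the left lay 140.4 kb from the core on chromosome 2, 116.2 kb on chromosome 7 and 397.4 kb on chromosome 9, with widths of 1000, 1600 and 800 bp.

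Each core was then ranked among intervals of its own size shifted by 100 kb along the chromosome, leaving out those that overlap a core. Such intervals overlap each other and neighbouring regions are alike, so the shares are descriptions. No interval was left out for assembly gaps or for sequence to which reads cannot be assigned. On chromosome 2 a 4.3 Mb interval held a median of 50.5 zones (quartiles 31 and 89), and 15 of 1658 (0.905%) held no more than the 5 of the core. These 15 lay together in 1 region, from 94900001 to 100800000, with 8 zones. On chromosome 9 a 1.8 Mb interval held a median of 27 zones, and 21 of 1154 (1.82%) held 3 or fewer (5.65% for the core trimmed by 250 kb at both ends). The 21 lay in 2 regions, from 4400001 to 7100000 and from 10400001 to 13500000. The chromosome 7 core was not unusual for its chromosome. A 5 Mb interval held a median of 82 zones, and 307 of 1345 (22.8%) held 33 or fewer. Of these, 21 held no zone, and no other 5 Mb interval of the autosomes was without a zone. Without its own densest 500 kb, and with that of every other interval also removed, the share was 15.5%.

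**Figure D4:**
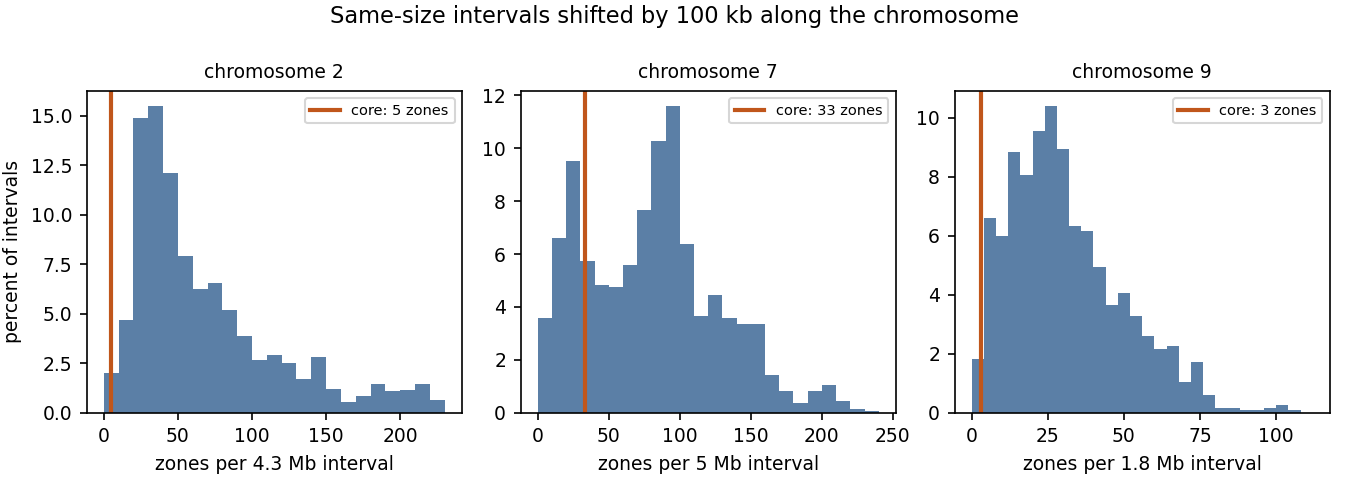
Percent of same-size intervals (vertical axis) by the number of zones they hold (horizontal axis), for intervals shifted by 100 kb along chromosomes 2, 7 and 9, with the core as an orange line. The chromosome 2 and chromosome 9 cores, with 5 and 3 zones, lie at the low end, and the chromosome 7 core, with 33, lies inside the lower part of the distribution.

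Over all autosomes the same ranking gave 0.512% of 23052 intervals for chromosome 2, 6.6% of 23603 for chromosome 9 and 22.5% of 22898 for chromosome 7. The intervals as sparse as the chromosome 2 core merged into 13 regions on 8 chromosomes, the longest of 7.9 Mb on chromosome 15 from 13659001 to 21559000. A low number of zones was thus shared with other regions, which were not examined for receptor genes.

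Covered length and empty stretches were ranked in the same way. No interval of 1658 on chromosome 2 (0%) was covered as little as the core or lay as much in stretches over 500 kb. Over all autosomes 0.252% were covered as little and 0.915% lay as much in such stretches. On chromosome 9, 0.693% were covered as little and 1.65% lay as much in such stretches, and on chromosome 7 these shares were 26.1% and 23.8%. Over all autosomes they were 5.24% and 7.53% for the chromosome 9 core, and 36.1% and 11.5% for the chromosome 7 core. For the longest stretch of a core the order differed: 8.93% of intervals on chromosome 2, 5.98% on chromosome 9 and 29.7% on chromosome 7 held a stretch as long, and over all autosomes 6.55%, 14.4% and 12.4% did, in the same order.

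The drop relative to the surroundings was ranked in the same way, by each interval's density over that of its own 5 Mb flanks. Intervals without a full 5 Mb on each side, between the first and last zone of the chromosome, were left out. On chromosome 9 this left out the region from 4400001 to 7100000, named above as holding intervals as sparse as the core. This ranking was added with the other results known. The median interval had a ratio of 0.906 on chromosome 2, 0.817 on chromosome 7 and 0.934 on chromosome 9. A ratio as low as the core's was found in 15 of 1558 intervals on chromosome 2 (0.963%), in 138 of 1245 on chromosome 7 (11.1%) and in 0 of 1054 on chromosome 9 (0%), where the lowest was 0.12 against 0.0916 in the core. The chromosome 9 core ratio rests on 3 zones.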

How the data were processed

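All values come from the zone list that the authors deposited, which joins the data of 3 nascent strand cultures, per the design text. It gives the position of each zone and nothing else. CASAVA 1.8 and SICER are the tools, and mm9 the build, in the submitters' processing notes. Caller settings, the handling of reads that match several places and the use of the controls are not given in the sources used here. These settings can change which zones were called in arrays of similar genes, and this was not tested. Starts lie on a 200 bp grid, ends are the last base, and positions are printed counting from 1.

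Density counts zones overlapping an interval per Mb. Covered length clips zones to the interval. Stretches are the space between adjacent zones. For the ranking and the alternatives, the longest stretch counts only the part inside the core or interval. Shares in long stretches also count only that part, with the limit applied to the full length. Bins of 500 kb count zone midpoints. Error intervals are exact Poisson or, for a ratio, exact conditional binomial. In the comparison of alternatives, shares of intervals and shares in long stretches were given exact binomial intervals. These were over the number of intervals or 500 kb pieces that do not overlap. The covered share was given the Poisson interval of the zone number, scaled to the share, which leaves out the spread of zone widths. The chromosome 7 median width was given its order-statistic interval. Zones named are the 3 widest, first and last of a core, or all members where 20 or fewer, and stretches the 3 longest, with others as marked. Receptor runs allow at most 25 other genes between Olfr genes. The sequences shown and the genes beside the runs follow a fixed rule, except for the 21-gene block, Cckbr and the genes named inside that block, which were added after the zones were seen. The members, lists and rules were chosen with earlier results of these data known. Python 3.11.15, numpy 2.4.6, pandas 2.3.3, scipy 1.17.1 and matplotlib 3.10.9 were used, and the interval functions were tested on simulated data.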

Additional observations from a re-analysis of the deposited data

How the results depend on the processing

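Of 150 alternatives over 21 values, 134 left the value inside its interval, or equal to it for the longest stretch and for median widths over fewer than 6 zones. The 134 include counting zones by midpoint, which changed none of the 21 values. The core was below its flanks in all 30 alternatives of the ratio of core to flank density, from 0.0333 to 0.393. These 30 include the removal of each core's densest bin with the flanks unchanged, which could only lower the ratio. The longest stretch was measured inside the core only, as 1.48 Mb on chromosome 2, 1.24 Mb on chromosome 7 and 0.773 Mb on chromosome 9. Leaving out zones under 1 kb lengthened it to 2.48, 1.39 and 1.17 Mb, in the same order. On chromosome 9 this filter left 1 zone. The share of that core in stretches over 500 kb was then 99.9%. Its median width, 800 bp before, became the 2000 bp of that zone. Trimming the cores by 250 kb at both ends gave a longest stretch of 0.523 Mb on chromosome 9 and a median width of 900 bp on chromosome 2. Widening them as much gave 1.02 Mb on chromosome 9 and widths of 1100 bp on chromosome 2 and 1400 bp on chromosome 9. Both chromosome 9 lengths are of the same stretch, cut at another core edge. With intervals that do not overlap each other, 0% on chromosome 9 held as few zones as the core. Without the densest 500 kb bin, an alternative chosen after seeing the data, the chromosome 7 core had 3.33 zones per Mb, 0.156 of its flanks' density and 0.609% coverage, and median widths were 600 bp on chromosome 2 and 2000 bp on chromosome 9. The last of these widths is that of 1 zone. The intervals of the chromosome 2 and chromosome 9 cores are wide, so values inside them still moved by over 1.5 times, in both directions. Some chromosome 7 values did too. Its share in long stretches fell from 52.8% to 24.9% at a limit of 1 Mb, inside an interval of 18.7% to 81.3%. Its median width fell from 2400 to 1200 bp without the densest bin, also inside its interval. Without zones under 1 kb, which left the chromosome 9 core with 1 zone, the chromosome 2 and chromosome 9 cores had 0.0415 and 0.0333 of their flanks' density. On chromosome 9, 0.693% of intervals then held as few zones. Trimming raised that last share from 1.82% to 5.65%, and widening raised the coverage of the chromosome 9 core from 0.189% to 0.304%. No paired analysis was possible because replicates were merged before deposit. For the same reason no replicate could be left out. Depth is unknown, so weak zones below the caller's threshold cannot be bounded.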
